A study of Homo sapiens with 4 samples.

Results

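The genes described here are 10 cytokine and chemokine genes known as targets of the transcription factor NF-kB: CXCL1, CXCL2, CXCL3, CXCL5, CXCL8, IL6, IL1A, IL1B, CCL20 and LIF. They were chosen by name, with no measured value in the rule, and are 10 of the 20162 protein-coding genes that GENCODE places on hg19. Earlier results of these data were known when they were chosen. The study profiled H3K27ac, an acetyl mark on histone H3 found at active promoters and enhancers, by ChIP-seq in 4 human cancer cell lines to read regulatory activity around non-coding mutations. Each line gave 1 library, made with antibody ab4729, and no treatment is named for any of them. COLO-205, an established colon cancer line, was grown in RPMI with FBS. DU-145, an established prostate cancer line, was grown in Eagle's minimum essential medium with FBS. OVCAR-3 and SKOV-3, both from ovarian cancer, were grown in RPMI medium and McCoy's 5a medium, both with FBS. With 1 library per line nothing could be tested between lines, so every value below describes a library and has no replicate check.

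NF-kB is a family of dimeric transcription factors that inhibitor proteins hold in the cytoplasm. Signals from receptors for TNF, interleukin-1 or bacterial products activate a kinase complex that marks the inhibitor for degradation, and the freed dimers enter the nucleus and bind kappaB sequences near their target genes. Among these targets are chemokines that draw neutrophils and lymphocytes, cytokines that act on neighbouring cells, and the inhibitors themselves, which end the response. Many carcinoma cells are known to make such cytokines without an added stimulus, to an extent that varies between lines.

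Most of the promoters share a sequence feature, shown here because the genes were chosen as NF-kB targets. The letters GGANTTTCC, close to the kappaB motif, occurred within 250 bases before to 50 after the main start of 6 of the 10 genes. Over all genes they were in 1.59% of 19862 protein-coding promoters of the same 300 bases. The broader kappaB motif searched has 10 letters, and a GGANTTTCC match is not always a match of that motif. The 6 stretches of 30 bases on GRCh37, each written 5′ to 3′ on the strand of its gene with letters that match GGANTTTCC or the broader kappaB motif in capitals, are these.
CXCL1 (chr4:74735022-74735051, plus strand): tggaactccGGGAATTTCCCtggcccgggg
CXCL2 (chr4:74964970-74964999, minus strand): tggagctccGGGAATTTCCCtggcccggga
CXCL3 (chr4:74904465-74904494, minus strand): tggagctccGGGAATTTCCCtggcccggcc
CXCL5 (chr4:74864465-74864494, minus strand): atgagttcaGGGAATTTCCCcagcatccca
CXCL8 (chr4:74606185-74606214, plus strand): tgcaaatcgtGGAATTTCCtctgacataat
IL6 (chr7:22766737-22766766, plus strand): atcaaatgtGGGATTTTCCcatgagtctca

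The GGANTTTCC match began 78 bases before the main start of CXCL1 and CXCL3, 77 before that of CXCL2, 90 before that of CXCL5, 91 before that of CXCL8 and 72 before that of IL6. The broader kappaB motif, which overlaps GGANTTTCC in all of these but CXCL8, was found in 7 of the 10 promoters, against 15.2% of all. The kappaB match of CXCL8 lay elsewhere, 17 bases before its start, and CCL20 held the broader form alone, 79 bases before its start. IL1A, IL1B and LIF held neither form in this window. Both strands were searched, also for TGANTCA (AP-1), found in 2 of the 10 and 5.41% of all promoters, for TTGCNNAA (C/EBP), found in 3 and 8.1%, and for the TATA box letters TATAAA, found in 4 and 9.63%. A match describes letters only, and since the genes were picked as NF-kB targets it is not independent of the choice.

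The peak lists differed in length and reach. COLO-205 had 85576 peaks, DU-145 had 75468, OVCAR-3 had 76093 and SKOV-3 had 14001. Peaks covered 1.33% of the mappable genome in OVCAR-3, 0.2% in SKOV-3, 1.13% in COLO-205 and 1.47% in DU-145. The background values in the lists correspond to about 34200000 tags in OVCAR-3, 22400000 in SKOV-3, 29800000 in COLO-205 and 36000000 in DU-145. At the lowest background, a peak needed 11 tags at its summit in OVCAR-3, 10 in SKOV-3, 11 in COLO-205 and 13 in DU-145. Sites with a higher background needed more, so the absence of a peak is not the absence of the mark. The fold enrichment used below is the tag pileup at the summit over the local background of the same library. It is not scaled between libraries, so a ratio of one line is best read against the other promoters of that line.

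The labelled tissues were checked against marker genes, where a gene counted as marked if a peak overlapped 1 kb either side of a transcript start. The epithelial genes EPCAM, KRT8, KRT18 and CDH1 were all marked in DU-145, COLO-205 and OVCAR-3, whereas SKOV-3 had peaks at KRT8 and KRT18 and none at EPCAM or CDH1. Of 5 colon genes COLO-205 had peaks at CDX2, VIL1 and LGALS4 and none at CDX1 or CDH17, and LGALS4 was marked in DU-145 and OVCAR-3 too. The prostate genes KLK3 and HOXB13 had no peak in DU-145, whereas KLK3 was marked in COLO-205 (5.10) and HOXB13 in OVCAR-3 (3.67). Other prostate genes are not reported here, so the check of the DU-145 label is partial. Of the ovarian genes PAX8, WT1, MUC16 and MSLN, OVCAR-3 had peaks at all 4, with fold enrichments of 31.30, 20.02, 24.22 and 11.44, and SKOV-3 had a peak at PAX8 alone, of 8.86. These ovarian genes were not particular to the ovarian lines, with 3 of 4 marked in COLO-205 and in DU-145. The leukocyte genes PTPRC, CD3E and LYZ had no peak in any line and CD14 had one in DU-145 only, of 3.73. Among other cell types, the endothelial gene CDH5 had a peak in DU-145 of 2.76. Of the fibroblast genes, COL1A1 was marked in every line but SKOV-3, and DCN and PDGFRA in none.

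Of the 10 cytokine genes, 6 had a promoter peak in at least 1 line and 4 in none. COLO-205 had promoter peaks at 4 of the 10 (51.1% of all protein-coding genes), DU-145 at 5 (59.8%), OVCAR-3 at 5 (60.5%) and SKOV-3 at 4 (31.6%). With only 10 genes, these counts lie near the share of all genes in each line. CXCL2, CXCL3 and LIF were marked in all 4 lines, CXCL1 in 3, IL6 in DU-145 and OVCAR-3, and CXCL5 in COLO-205. CXCL8, IL1A, IL1B and CCL20 had no promoter peak in any line, a state shared by 5033 protein-coding genes or 25% of them. Marking in all 4 lines was as frequent, at 5072 genes or 25.2%. Since 5033 genes share the pattern of CXCL8, no nearest genes to it could be named.

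**Figure D1:**
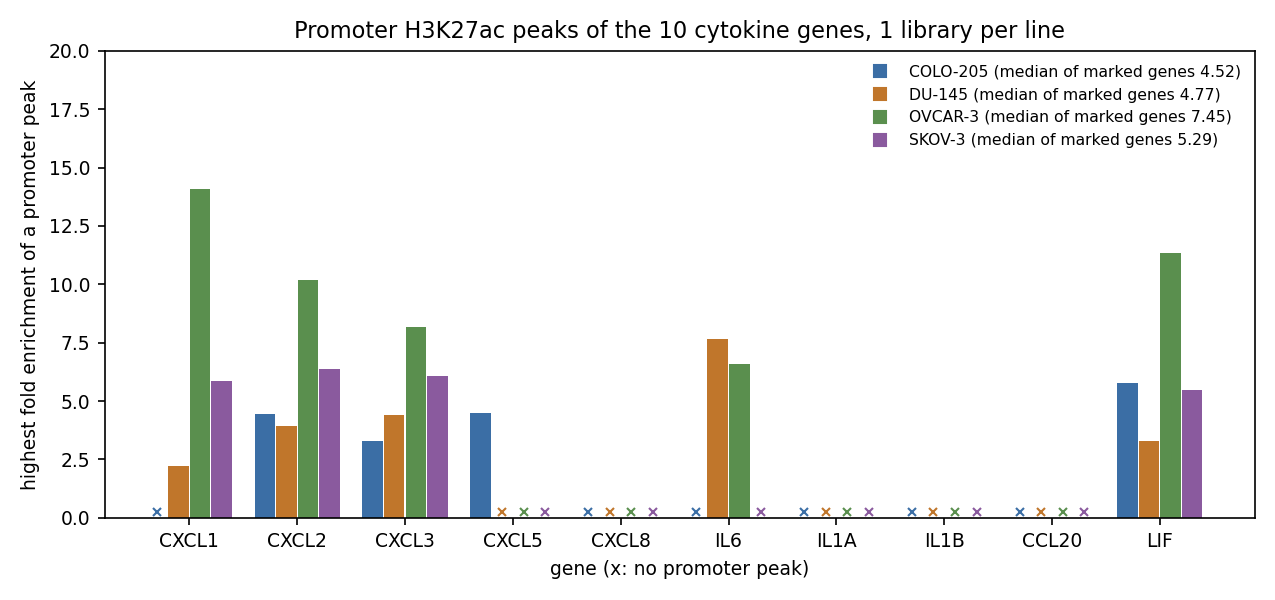
Highest fold enrichment (y axis, over the local background of the same library) among the promoter peaks of each of the 10 cytokine genes (x axis), with a bar for each of the 4 lines and a cross where there was no promoter peak; the key gives the median over all marked genes of the line. OVCAR-3 has the highest bar at CXCL1 (14.07), CXCL2 (10.20), CXCL3 (8.16) and LIF (11.34), and DU-145 at IL6 (7.65).

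CXCL1, CXCL2 and CXCL3 encode closely related chemokines that attract neutrophils through the receptor CXCR2. CXCL1 (chr4:74735110-74737025) showed the widest spread between lines. In OVCAR-3 its start lay in a peak of 1172 bp with a −log10 q of 110 at 13.90 times the background, flanked by peaks of 13.23 and 14.07. In SKOV-3 it had peaks of 5.87 and 5.83 on either side of the start. In DU-145 there was a single peak of 829 bp with a −log10 q of 3.94 at 2.20 times the background, and in COLO-205 there was none.

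The tag pileups at CXCL1 can be read with their counting error, given as exact Poisson 95% intervals that cover counting alone. The pileups are also given as RPM, scaled to the tag total worked out for the library from its background. The strongest summit held 143 tags in OVCAR-3, or 4.18 RPM (3.52 to 4.92), and 40 tags in SKOV-3, or 1.79 RPM (1.28 to 2.43). The DU-145 summit held 40 tags too, or 1.11 RPM (0.793 to 1.51), but over a local background of 17.7 tags, against 9.36 in OVCAR-3 and 6.03 in SKOV-3. DU-145 thus had a pileup near that of its other chemokine promoters and a low ratio. Only 0.124% of the marked promoters of the line had a lower highest fold enrichment.

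CXCL2 (chr4:74962757-74964913) was marked in every line. The highest fold enrichment of its promoter peaks was 10.20 in OVCAR-3, 6.36 in SKOV-3, 4.44 in COLO-205 and 3.95 in DU-145. These values were above those of 72.1%, 71.2%, 47.3% and 27.5% of the marked promoters of the line. The peaks of COLO-205, DU-145 and OVCAR-3 were of similar width, at 919, 1074 and 1055 bp, whereas SKOV-3 had separate peaks of 231 and 483 bp. The former, of 6.36, lay downstream of the start and the latter, of 4.70, over it. The pileup at the start was 1.14 RPM in COLO-205 (0.79 to 1.59), 1.22 in DU-145 (0.887 to 1.64), 2.43 in OVCAR-3 (1.93 to 3.01) and 1.25 in SKOV-3 (0.831 to 1.81). The interval of OVCAR-3 lay above those of the other lines, which overlapped each other, but the intervals cover counting alone. OVCAR-3 also had the highest median fold enrichment over all its marked promoters, 7.45 against 5.29 in SKOV-3, 4.52 in COLO-205 and 4.77 in DU-145. No such background was taken for RPM, so the gap cannot be called particular to CXCL2.

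CXCL3 (chr4:74902306-74904524) was also marked in every line. Its fold enrichment was 8.16 in OVCAR-3, 6.07 in SKOV-3, 3.31 in COLO-205 and 4.40 in DU-145, above that of 56.7%, 66.9%, 11.5% and 40% of the marked promoters of the line, so that it ranked higher in SKOV-3 than in OVCAR-3. The COLO-205 peak was 246 bp wide and lay before the main start, and those of DU-145 and OVCAR-3 were 981 and 1120 bp wide and lay across it. Its pileup was 0.872 RPM in COLO-205 (0.57 to 1.28), 1.19 in DU-145 (0.863 to 1.61), 2.48 in OVCAR-3 (1.98 to 3.07) and 1.16 in SKOV-3 (0.758 to 1.7).

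The promoters of these chemokines resemble each other closely near the start, which bears on how reads can be placed. The 150 bases before the first annotated exon of CXCL1 and CXCL2, with kappaB matches in capitals, show the likeness.
CXCL1 (chr4:74734960-74735109, plus strand): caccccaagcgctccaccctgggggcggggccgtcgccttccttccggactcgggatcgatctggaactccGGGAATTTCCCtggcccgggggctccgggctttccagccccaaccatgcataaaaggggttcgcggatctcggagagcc
CXCL2 (chr4:74964914-74965063, minus strand): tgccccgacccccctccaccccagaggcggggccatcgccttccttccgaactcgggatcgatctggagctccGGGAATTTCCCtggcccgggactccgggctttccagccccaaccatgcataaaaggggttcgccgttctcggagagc

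Of the 1971 words of 31 bases within 1 kb of the main start, 7.2% occurred elsewhere in GRCh37 for CXCL1, 12.8% for CXCL2 and 11.5% for CXCL3. CXCL2 and CXCL3 shared 184 such words with each other. A read lying within 1 such word matches more than 1 place, whereas a longer read may still be placed. The part of these words in the pileups was not tested. No word around CXCL8, IL6 or IL1A was found elsewhere.

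CXCL5 encodes another neutrophil chemokine, and CXCL8 encodes interleukin-8, the best known of them. CXCL5 (chr4:74861359-74864394) had a promoter peak in COLO-205 alone, 219 bp wide with a fold enrichment of 4.51, a −log10 q of 6.67 and 19 tags at its summit, 259 bp before the start. CXCL8 (chr4:74606236-74609433) had no promoter peak in any line although its promoter holds GGANTTTCC, AP-1 and TATA box letters. The bases before its first annotated exon, with GGANTTTCC in capitals, are given for comparison with the marked chemokines.
CXCL8 (chr4:74606086-74606235, plus strand): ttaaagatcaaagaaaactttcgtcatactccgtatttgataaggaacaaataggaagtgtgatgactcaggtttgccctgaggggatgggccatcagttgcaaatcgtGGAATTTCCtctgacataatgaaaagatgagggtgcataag

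IL6 encodes interleukin-6, which acts through IL6R and gp130 on growth and the acute phase response. IL6 (chr7:22765503-22771621) was marked in DU-145 and OVCAR-3 and had no peak within 50 kb in COLO-205 or SKOV-3. In DU-145 peaks of 741 and 812 bp with fold enrichments of 7.65 and 6.05 lay on either side of a gap before the main start, and in OVCAR-3 peaks of 350 and 380 bp with 6.57 and 4.25 lay near the same places. The highest value was above that of 91.6% of marked promoters in DU-145 and of 41.1% in OVCAR-3. The summit after the start held 1.89 RPM in DU-145 (1.46 to 2.39) and 0.994 in OVCAR-3 (0.688 to 1.39). IL6 was the only member whose highest fold enrichment was greater in DU-145 than in OVCAR-3. The DNA before its first exon near the main start, with the kappaB match in capitals, begins in the gap between the DU-145 peaks and runs into the second of them. Both DU-145 peaks, and the OVCAR-3 peak of 4.25, also lie within 1 kb of starts of STEAP1B and of the antisense transcript IL6-AS1. STEAP1B is an overlapping protein-coding gene, so these peaks cannot be assigned to IL6 alone. The same holds for CXCL2, for the CXCL5 peak of COLO-205 and for the LIF peaks of every line but DU-145, each within 1 kb of the start of a non-coding gene.
IL6 (chr7:22766616-22766765, plus strand): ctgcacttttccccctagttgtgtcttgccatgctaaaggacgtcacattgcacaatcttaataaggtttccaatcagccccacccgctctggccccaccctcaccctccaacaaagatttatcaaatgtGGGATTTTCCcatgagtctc

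LIF encodes a cytokine of the interleukin-6 family that signals through LIFR and gp130 and is known for keeping stem cells undifferentiated. LIF (chr22:30636442-30642748) was marked in every line, with a highest fold enrichment of 11.34 in OVCAR-3, 5.48 in SKOV-3, 5.79 in COLO-205 and 3.27 in DU-145. These were above 78.4%, 55%, 79.1% and 11% of the marked promoters of the line, which puts OVCAR-3 and COLO-205 level by rank. The OVCAR-3 peaks were 2344 and 3150 bp wide and left only a short gap before the start. The DU-145 peak was 406 bp wide with its summit 826 bp before the start, and it no longer counted when the promoter was taken as 500 bp either side. The strongest summit held 1.91 RPM in COLO-205 (1.45 to 2.48), 0.999 in DU-145 (0.699 to 1.38), 4 in OVCAR-3 (3.36 to 4.73) and 1.7 in SKOV-3 (1.2 to 2.33).

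**Figure D2:**
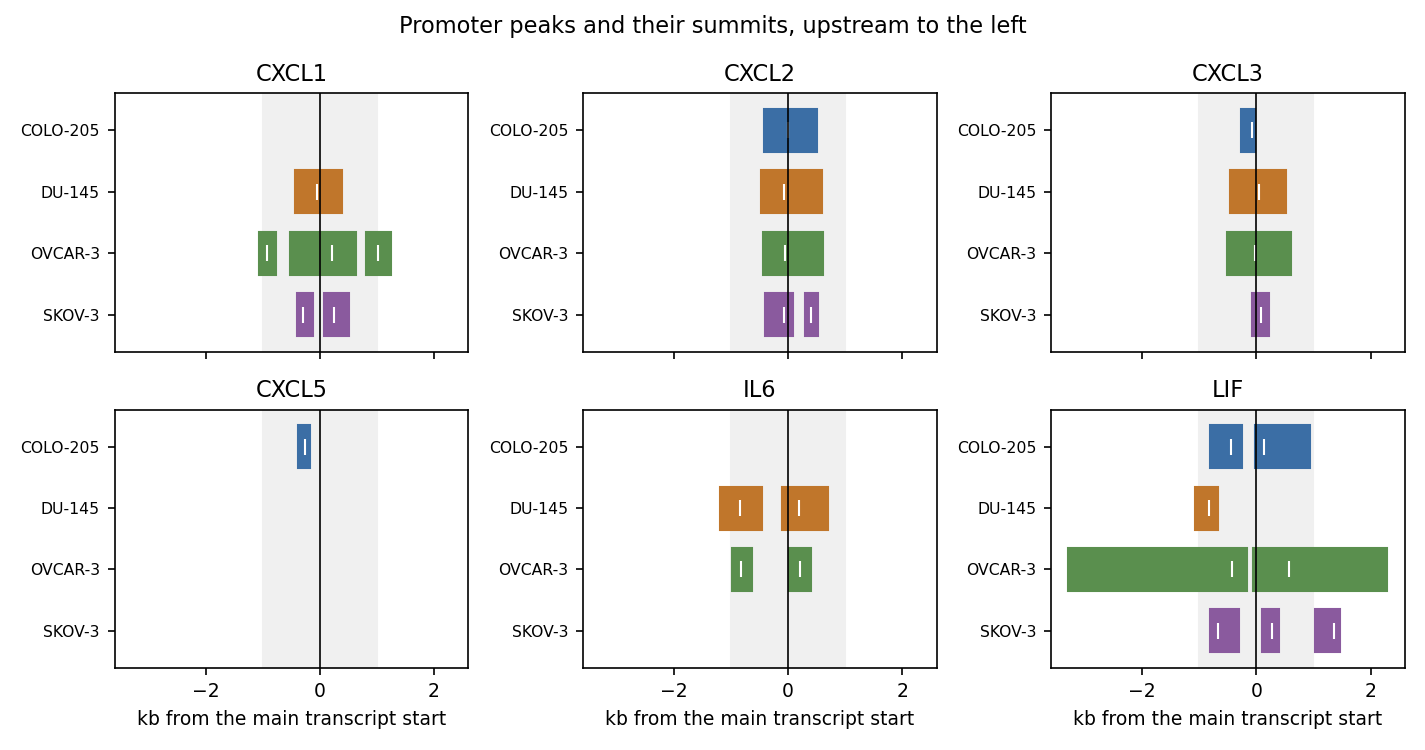
Promoter peaks of the 6 cytokine genes marked in at least 1 line, drawn as bars by kb from the main transcript start (x axis, upstream to the left) for each of the 4 lines (y axis), with the summit as a white tick and the window of 1 kb either side in grey. The LIF peaks of OVCAR-3, 2344 and 3150 bp wide, reach past the window on both sides, and the IL6 peaks of DU-145 and OVCAR-3 leave a gap upstream of the start.

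The promoter calls rest on peaks of unequal strength. With a −log10 q of at least 10 required, COLO-205 kept CXCL2 and LIF of its 4 genes (31.7% of all protein-coding genes) and DU-145 kept CXCL2, CXCL3 and IL6 of its 5 (51.1%), while OVCAR-3 (55.3%) and SKOV-3 (22.2%) kept all of theirs. With each list reduced to its 14001 strongest peaks, the length of the SKOV-3 list, COLO-205 kept LIF (21.8% of all protein-coding genes), DU-145 kept IL6 (37.8%) and OVCAR-3 lost IL6 and kept the other 4 (37.9%).

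The distal peaks, within 50 kb of a gene body and outside its own promoter window, lay mostly around LIF. At least 1 was found for 8 of the 10 genes in OVCAR-3 (76.4% of all protein-coding genes) and 6 in SKOV-3 (46.8%). The number was 5 in COLO-205 (80.9%) and 6 in DU-145 (75.2%). Some of these genes had only peaks within 1 kb of another gene start. They were CXCL2, CXCL3 and CXCL5 in COLO-205, CXCL5 and IL1A in DU-145, and CXCL5 in SKOV-3. The CXCL5 peak was in each case the promoter peak of CXCL3. Counted once where genes share a peak, there were 78 distal peaks in OVCAR-3, 34 in SKOV-3, 23 in COLO-205 and 43 in DU-145. Without those of LIF, 29, 7, 4 and 12 remained in the same order. Of the 4 in COLO-205, only the CCL20 peak was not within 1 kb of another gene start. Leaving out all peaks at other gene starts, with LIF kept in, gave totals of 65, 28, 17 and 34. With 14001 peaks in every list, and peaks at other gene starts included, the totals were 18, 34, 5 and 10, so the order of OVCAR-3 and SKOV-3 turned. The median for a single protein-coding gene was 3 in OVCAR-3, 0 in SKOV-3, 3 in COLO-205 and 4 in DU-145. It is a value per gene and cannot be set directly against these totals over several genes.

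LIF stood in a wide acetylated region in each line. Its distal peaks numbered 49 in OVCAR-3, 27 in SKOV-3, 19 in COLO-205 and 31 in DU-145, more than those of 97.6%, 99.8%, 90% and 95.8% of protein-coding genes in the same order. Of the 106.3 kb from 50 kb before to 50 kb after the gene, peaks covered 39.4% in OVCAR-3, 12.3% in SKOV-3, 8.58% in COLO-205 and 26.5% in DU-145. Merged over lines the distal peaks formed 44 regions, of which 5 held peaks of all 4 lines, 10 of 3 lines, 11 of 2 and 18 of 1. Without such a split of all merged peaks, this sharing cannot be called high or low. The regions common to all lines included chr22:30646128-30651433 and chr22:30651733-30654582, intergenic and upstream of LIF, and chr22:30618957-30621483, beyond its far end. A start of CASTOR1, a gene for an arginine sensor of the mTOR pathway, lay within 1 kb of a region with peaks in DU-145, OVCAR-3 and SKOV-3.

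The strongest distal peak of LIF, taken here and below by −log10 q, differed between lines. In OVCAR-3 it spanned 5211 bp with its summit 4.0 kb upstream of the start, at a −log10 q of 182 and 22.54 times the background. It was also the strongest of all member peaks in any line, with 185 tags or 5.41 RPM (4.66 to 6.24), and was above 99.5% of OVCAR-3 peaks in fold enrichment. In SKOV-3 the strongest lay 10.8 kb upstream with 10.30, in DU-145 41.2 kb downstream with 8.44 and in COLO-205 39.2 kb downstream with 6.81, within 1 kb of the start of a non-coding gene. The 201 bases around the OVCAR-3 summit are shown as the strongest point of the whole set, with letters matching TGANTCA in capitals. The search took any base at N, and the matches here, TGATTCA and TGAATCA, have T and A there. They are matches of letters and were not shown to be AP-1 sites. The kappaB and C/EBP letters were not in this window.
LIF upstream peak (chr22:30646615-30646815, plus strand): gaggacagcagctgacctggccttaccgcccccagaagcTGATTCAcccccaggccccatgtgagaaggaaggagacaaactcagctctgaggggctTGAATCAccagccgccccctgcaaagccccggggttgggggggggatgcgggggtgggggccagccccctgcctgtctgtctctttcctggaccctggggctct

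**Figure D3:**
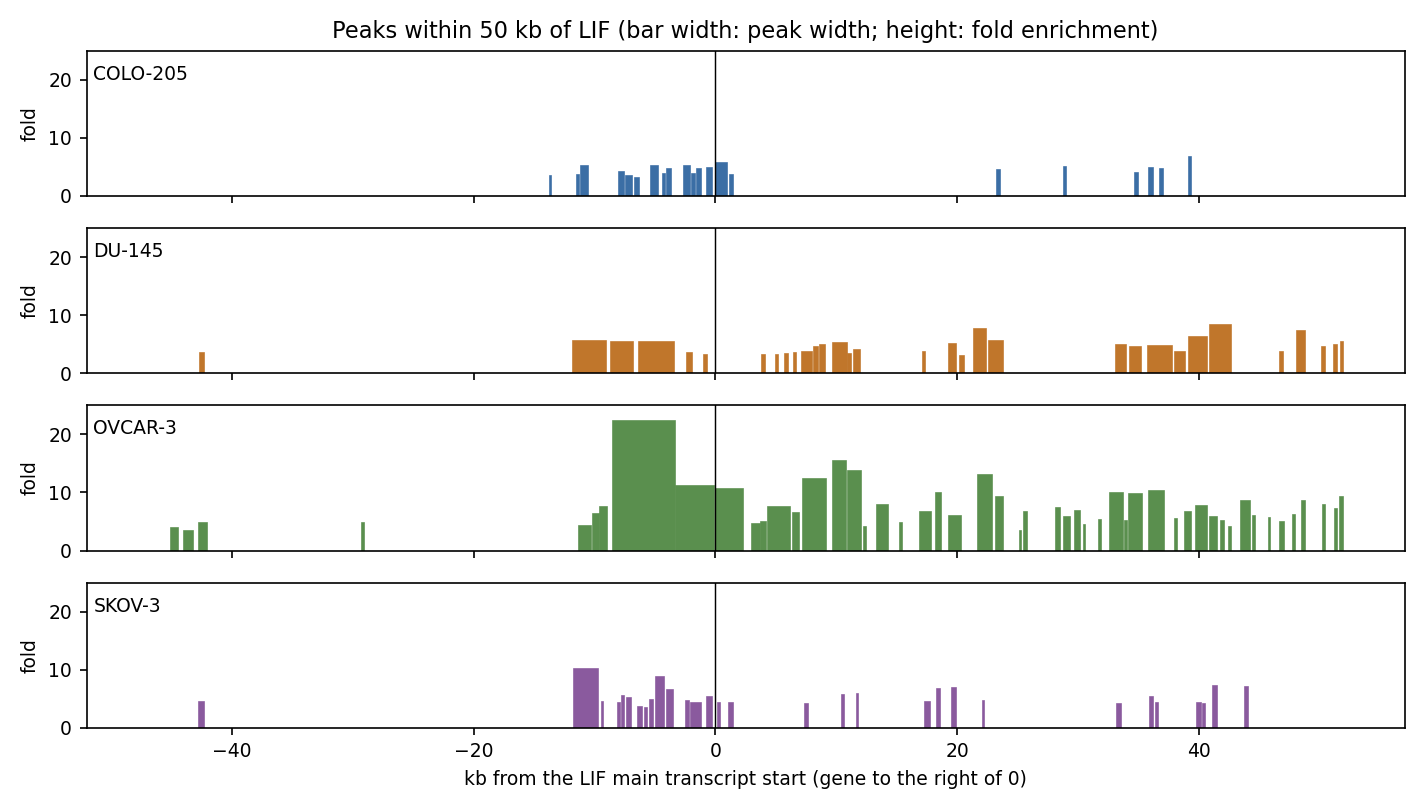
Peaks within 50 kb of LIF in each line, by kb from its main start (x axis, the gene to the right of 0) and fold enrichment (y axis); the width of a bar is that of the peak. The 5211 bp peak of OVCAR-3 reaches 22.54, and peaks of all 4 lines fall between the start and about 12 kb upstream of it.

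On chromosome 4 the 5 CXCL members lie in a single stretch, taken from 50 kb before CXCL8 to 50 kb after CXCL2 (chr4:74556236-75014913, 458.7 kb). It also holds CXCL6, PF4V1, PF4 and PPBP, which encode related chemokines, and the beginning of MTHFD2L, which encodes an enzyme of mitochondrial folate metabolism. COLO-205 had 5 peaks there, DU-145 6, OVCAR-3 25 and SKOV-3 6. They covered 2002 bp in COLO-205 (0.436% of the stretch, against 0.505% of the chromosome), 4459 bp in DU-145 (0.972% against 0.453%), 11313 bp in OVCAR-3 (2.47% against 0.502%) and 2250 bp in SKOV-3 (0.491% against 0.11%). Against 3030 windows of 1 Mb over the genome, the covered share of the stretch was above 89.1% of windows in OVCAR-3, 90.4% in SKOV-3, 59.6% in COLO-205 and 69.9% in DU-145. These windows are longer than the stretch and were not chosen for their genes, so the ranks compare unlike regions.

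Merged over lines, the peaks of the stretch formed 28 regions. The regions over the starts of CXCL3 and CXCL2 held peaks of all 4 lines. Those over the CXCL1 start and upstream of CXCL2 held peaks of DU-145, OVCAR-3 and SKOV-3, and 1 more, inside CXCL2, of DU-145 and OVCAR-3. The other 23 were found in a single library: 19 in OVCAR-3, 3 in COLO-205, 1 in DU-145 and none in SKOV-3. The same split was not counted over the whole lists, so it cannot be called particular to the stretch. The longest gap with no peak in any line was 39.0 kb, between CXCL5 and CXCL3. CXCL6 had a promoter peak in OVCAR-3 only (3.35), and PF4V1, PF4 and PPBP had none in any line. MTHFD2L was marked in all 4 lines, at starts beyond the end of the stretch.

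The region upstream of CXCL2 (chr4:74977454-74978533) had the highest fold enrichment of the stretch in each line that had a peak there. It is intergenic, between CXCL2 and MTHFD2L, and overlaps no promoter window. Its fold enrichment was 15.94 in OVCAR-3, 10.52 in SKOV-3 and 12.79 in DU-145, above 97.6%, 97.6% and 99.8% of the peaks of those lists. The summits lay 13.3, 13.3 and 13.4 kb upstream of the CXCL2 start and held 1.55 RPM in DU-145 (1.17 to 2.02), 1.67 in OVCAR-3 (1.26 to 2.16) and 1.21 in SKOV-3 (0.794 to 1.75), with overlapping intervals. COLO-205 had no peak there. The 201 bases around the OVCAR-3 summit are shown because 3 lines share the place, and hold none of the kappaB, GGANTTTCC, AP-1 or C/EBP letters.
CXCL2 upstream peak (chr4:74978157-74978357, plus strand): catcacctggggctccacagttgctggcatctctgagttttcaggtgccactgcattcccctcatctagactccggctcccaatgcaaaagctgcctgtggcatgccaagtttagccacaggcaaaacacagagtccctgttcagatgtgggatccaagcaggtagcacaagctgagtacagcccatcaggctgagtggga

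At the other end of the stretch, CXCL8 had 11 distal peaks in OVCAR-3, more than 81.3% of protein-coding genes there, and none in the other lines. Of these, 10 lay upstream, from 42.9 to 4.8 kb before the start, and 1 lay 33.6 kb downstream, and none was within 1 kb of the start of another gene. The strongest by −log10 q had its summit 11.2 kb upstream with a fold enrichment of 12.13 and 1.61 RPM (1.21 to 2.09), and a neighbour 12.7 kb upstream reached 12.80. Around the former summit 41.5% of the 31-base words of the 201-base window occurred elsewhere in the genome. OVCAR-3 also had peaks 22.4 and 48.3 kb downstream of CXCL1, with fold enrichments of 14.20 and 9.65.

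**Figure D4:**
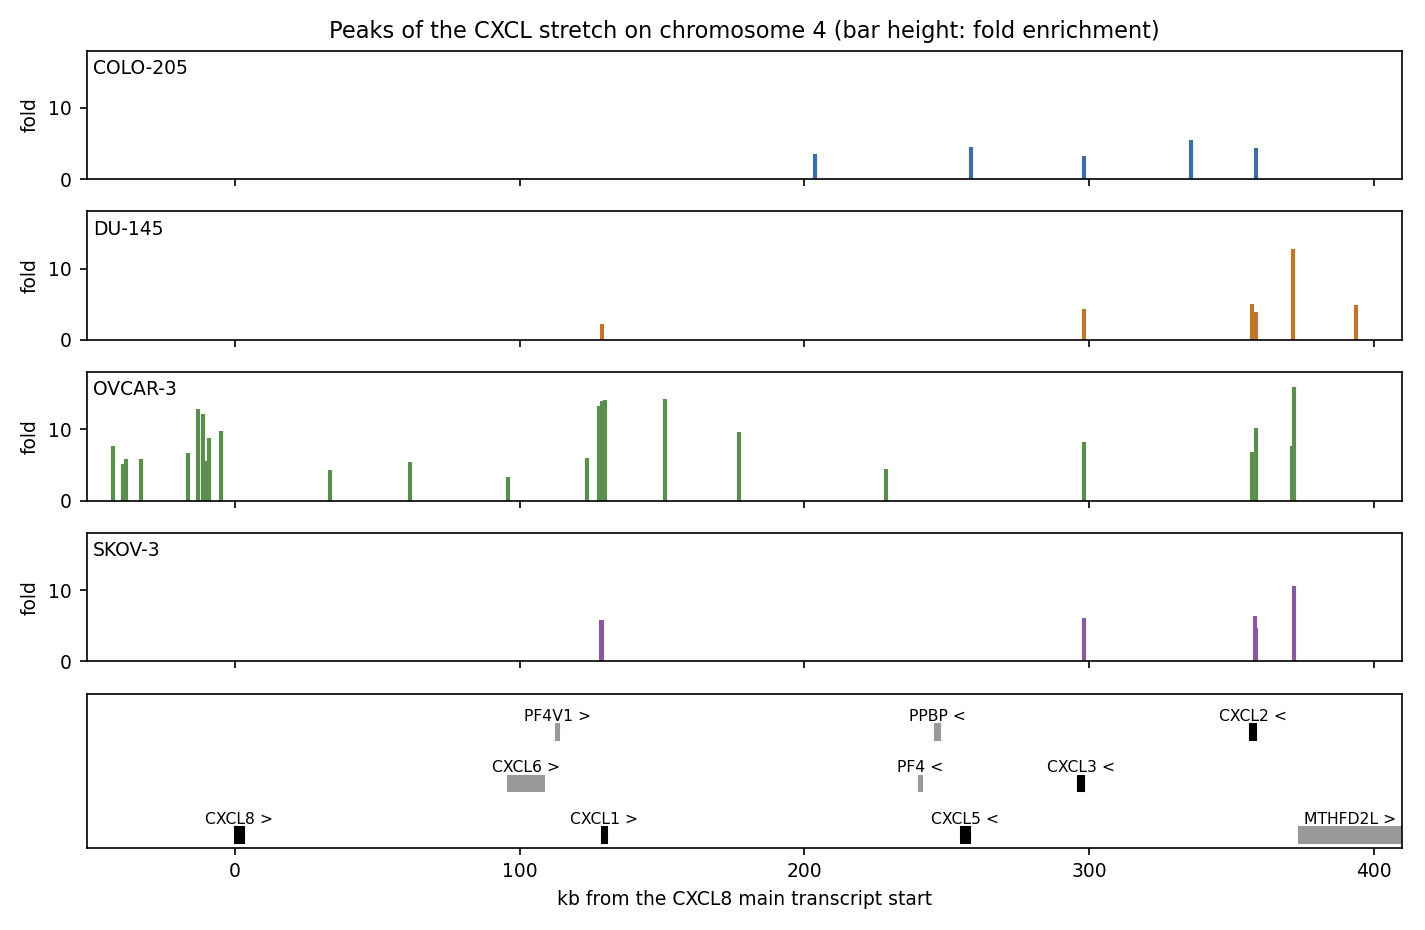
Peaks of the CXCL stretch in each line, placed by kb from the CXCL8 main start (x axis) with their fold enrichment as height (y axis); the lowest panel shows the genes, members in black, with arrows for their strand. The 10 peaks before CXCL8 are in OVCAR-3 alone, and the peak upstream of CXCL2 stands in DU-145, OVCAR-3 and SKOV-3.

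IL1A and IL1B encode the interleukin-1 ligands, which themselves activate NF-kB, and lie side by side on chromosome 2. Neither IL1A (chr2:113531502-113542070) nor IL1B (chr2:113587328-113594393) had a promoter peak. OVCAR-3 had a peak of 674 bp 7.2 kb upstream of IL1A with a fold enrichment of 13.46, 1.55 RPM (1.16 to 2.03), and no other gene start within 1 kb. A region between both genes, chr2:113569129-113569560, had peaks in OVCAR-3 (4.91) and SKOV-3 (6.39). The single peak of DU-145 in the window of IL1A, of 3.56, lay within 1 kb of a start of CKAP2L, a neighbouring mitotic gene also marked in OVCAR-3 (4.85) and SKOV-3 (5.06), and COLO-205 had none. IL1RN, the gene of the natural antagonist of interleukin-1, had no promoter peak in any line.

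CCL20 encodes a chemokine that draws CCR6-bearing lymphocytes and dendritic cells. CCL20 (chr2:228670455-228682280) had no promoter peak and a few distal peaks in each line: 5 in OVCAR-3, 2 in SKOV-3, 1 in COLO-205 and 3 in DU-145. None of them lay within 1 kb of another gene start. The strongest lay 45.8 kb upstream in COLO-205 (4.06), 49.2 kb downstream in DU-145 (6.03, with a neighbour of 6.37), 38.7 kb downstream in OVCAR-3 (8.26) and 53.7 kb upstream in SKOV-3 (6.66), distances being from the main start. IL6 had 4 distal peaks in DU-145, with fold enrichments between 4.18 and 5.96, of which 3 lay upstream inside the span of STEAP1B and 1 inside IL6.

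The letters under the distal peaks were compared with those under the peaks of the whole list, in 201 bases around each summit. The whole list includes promoter peaks, so the compared sets also differ in kind of peak. The part of this in the shares below was not tested. AP-1 letters were in 6 of 23 member distal peaks in COLO-205 (26.1%, against 2.63% of all its peaks), 4 of 43 in DU-145 (9.3% against 3.97%), 7 of 78 in OVCAR-3 (8.97% against 3.7%) and 1 of 34 in SKOV-3 (2.94% against 2.46%). The kappaB motif was in 13% of them in COLO-205 against 10.9% of all peaks, 18.6% against 9.07% in DU-145, 14.1% against 10.2% in OVCAR-3 and 8.82% against 14% in SKOV-3. GGANTTTCC was in 2 of these peaks in OVCAR-3 (2.56% against 0.528%), 0 in SKOV-3 (against 0.779%), 1 in COLO-205 (4.35% against 0.495%) and 0 in DU-145 (against 0.612%). C/EBP letters were in 4 in OVCAR-3 (5.13% against 3.8%), 1 in SKOV-3 (2.94% against 3.28%), 0 in COLO-205 (against 2.91%) and 1 in DU-145 (2.33% against 4.29%). Neighbouring peaks of LIF make up most of the distal peaks, so these shares are not those of independent sites.

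The genes of the pathway itself were marked to an extent that differed between lists. The subunit genes NFKB1, NFKB2, RELA and REL were marked in all lines and RELB in every line but COLO-205, with the highest fold enrichment at NFKB1 in OVCAR-3 (17.27). Of 9 inhibitor and feedback genes, 7 were marked in OVCAR-3 (60.5% of all protein-coding genes), 5 in SKOV-3 (31.6%), 5 in COLO-205 (51.1%) and 9 in DU-145 (59.8%). NFKBIA, which encodes the inhibitor IkB-alpha, had the highest value of the list in OVCAR-3 (29.75) and DU-145 (20.79), TNIP1 in SKOV-3 (11.28) and TNFAIP3 in COLO-205 (10.15). BIRC3, a ubiquitin ligase, and CYLD, a deubiquitinase, were marked in DU-145 only. Against the same shares, all of 11 kinase and adaptor genes were marked in OVCAR-3, 9 in DU-145 and 8 in each of the others, led by IRAK1 in OVCAR-3 (18.27).

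Of 8 genes for receptors of the members, 5 were marked in OVCAR-3 (60.5% of all protein-coding genes), 4 in SKOV-3 (31.6%), 2 in COLO-205 (51.1%) and 5 in DU-145 (59.8%). CXCR1 and CXCR2, the receptors of the CXCL members, had no promoter peak in any line. CCR6, the receptor of CCL20, had one in COLO-205 only, of 5.69. IL6ST, which encodes gp130, was marked in all 4 lines. IL1R1, the interleukin-1 receptor, and LIFR were marked in every line but COLO-205, and IL1R1 had the highest value of the list, 20.23 in OVCAR-3. Among 6 receptors that activate NF-kB, 1 was marked in SKOV-3 (16.7%, against 31.6% of all protein-coding genes) and 3 in each other line (50%, against 60.5% in OVCAR-3, 51.1% in COLO-205 and 59.8% in DU-145). TNFRSF1A was marked in all lines with up to 7.66 in OVCAR-3, TLR4 in COLO-205 only (4.90), and TLR2 and TLR3 in none.

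Of 16 other inflammatory NF-kB target genes, 6 were marked in OVCAR-3 (37.5%, against 60.5% of all protein-coding genes), 3 in SKOV-3 (18.8% against 31.6%), 7 in COLO-205 (43.8% against 51.1%) and 9 in DU-145 (56.2% against 59.8%). SOD2, a mitochondrial superoxide dismutase, and IL23A were marked in every line, with the highest value at SOD2 in OVCAR-3. The chemokine genes CCL2 and CXCL10 had no promoter peak in any line. Peaks in a single line were found at CCL5 (4.41), CSF3 (3.53) and MMP9 (4.21) in COLO-205, IL11 (3.56), IL18 (3.94) and IL24 (4.93) in DU-145, and TNF (3.92) and PTGS2 (6.03) in OVCAR-3. With IL1RN and the other 5 genes of the CXCL stretch added to these lists, 63.9% of 61 genes were marked in OVCAR-3 (60.5% of all protein-coding genes), 44.3% in SKOV-3 (31.6%), 49.2% in COLO-205 (51.1%) and 67.2% in DU-145 (59.8%).

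**Figure D5:**
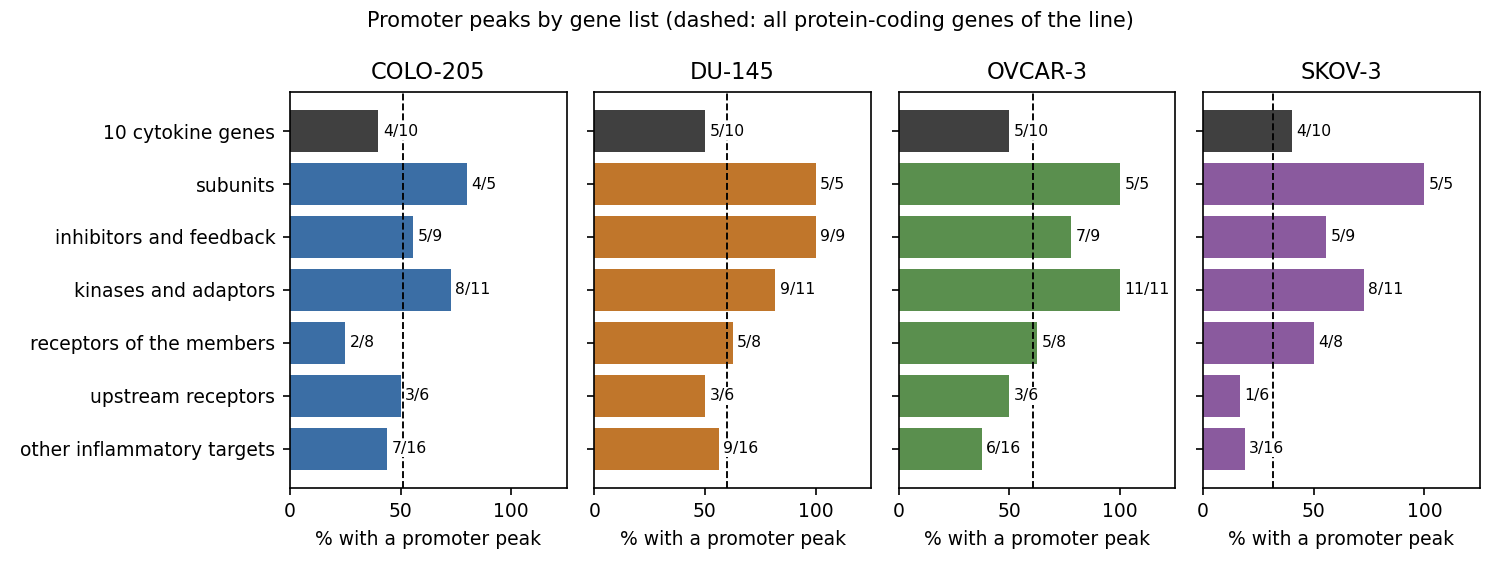
Share of genes with a promoter peak (x axis, percent) for the 10 cytokine genes and 6 lists of the NF-kB pathway (y axis), with a panel for each line; the labels give marked genes over all genes of the list and the dashed line is the share of all protein-coding genes. The subunits, with 4 or 5 of 5 genes marked, lie to the right of the dashed line in all 4 lines. So do the inhibitor and feedback genes and the kinase and adaptor genes, the former only narrowly in COLO-205 (5 of 9, 55.6% against 51.1%). The lists are short.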

How the data were processed

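H3K27ac ChIP-seq was done on 4 cell lines with 1 library each. The authors mapped reads to hg19 with Bowtie2 2.1.0 and called narrow peaks per library with MACS2 2.1.0.20150603 at a q below 0.001. The deposited score is 10 times the −log10 q as a whole number. The deposited fold enrichment is the summit pileup over the local background of the library. The deposited −log10 values are those of the p and q of the summit. Peaks under 350 bp apart were described as merged, but each list holds gaps smaller than that, so lists were used as deposited.

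A gene was called marked when a peak overlapped 1 kb either side of any GENCODE transcript start by at least 1 bp. Distal peaks lay within 50 kb of the gene body. Summit tags were recovered from fold enrichment and −log10 p to within 0.001. Tag totals were worked out from the lowest background over 2700000000 positions. The smallest peak width of each list, from 192 bp in SKOV-3 to 248 bp in DU-145, was taken as the fragment length. These totals are not read counts, and RPM values rest on them. The named genes were all 10 members, list genes marked in no or 1 line, the list gene with the highest fold enrichment, the strongest distal peaks, and the genes nearest to CXCL8 in pattern, which tied; other genes, regions and peaks were named after their values were seen. The members and lists were chosen with earlier results of these data known. PECAM1, a listed endothelial marker, had no match by symbol and was not used here. Motifs and words were counted in GRCh37. All steps ran in Python 3.11.15, with matplotlib 3.10.9 for drawing, pandas 2.3.3 for tables, and numpy 2.4.6 and scipy 1.17.1 for arrays and intervals. No test between lines was run, and an outlier check and the alternatives tried are given at the end.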

Additional observations from a re-analysis of the deposited data

Results flagged for a closer look

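Of 5 measures compared over the 4 libraries, the number of peaks set SKOV-3 apart: its 14001 peaks lay below the next list by 0.859 of the whole range, above Dixon's limit for 4 values. Chance flags about 1 in 20 such groups. The counts of marked cytokine genes, of distal peaks, of distal peaks around LIF and of base pairs in the chromosome 4 stretch gave no such gap. SKOV-3 also had the lowest tag total worked out from the background values, about 22400000, and the part of depth in its shorter list was not tested.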

How the results depend on the processing

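Of 60 recomputed counts, 42 kept within 1.5 times their value and 18 moved. With a −log10 q of at least 10, the cytokine genes with a promoter peak fell to 2 in COLO-205 and 3 in DU-145, distal peaks were 9 in COLO-205, 28 in DU-145 and 19 in SKOV-3, and 919 bp of the CXCL stretch were covered in COLO-205. With 14001 peaks in every list, 1 gene was marked in COLO-205 and 1 in DU-145, distal peaks were 18 in OVCAR-3, 5 in COLO-205 and 10 in DU-145 beside the unchanged 34 in SKOV-3, and the stretch had 6446 bp in OVCAR-3, 0 bp in COLO-205 and 967 bp in DU-145. Both settings remove the weaker peaks by construction. Merging peaks under 350 bp apart left 15 distal peaks in COLO-205, as it joins neighbours. Within 25 kb, there were 41 distal peaks in OVCAR-3, 22 in SKOV-3 and 27 in DU-145, from the smaller window. Promoter windows of 500 bp or 2 kb, an overlap of 50%, distal windows of 100 kb and the removal of peaks at other gene starts moved no count by that much. Under every setting applied to the stretch, OVCAR-3 kept the most covered bases in the stretch. At the lowest background, 10 to 13 tags were needed for a peak, and more elsewhere, so weaker acetylation was not detectable at this depth.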
